A study of Saccharomyces cerevisiae with 6 samples.

Results

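A set of 10 yeast genes that build and reshape the beta-glucan of the cell wall was followed in a mutant that lacks KNR4. They are the synthase genes FKS1 (YLR342W) and GSC2 (YGR032W, also named FKS2), the beta-1,6-glucan genes KRE6 (YPR159W), SKN1 (YGR143W) and KRE9 (YJL174W), the glucanosyltransferase genes GAS1 (YMR307W) and GAS5 (YOL030W), and the wall glucanase family genes BGL2 (YGR282C), SCW4 (YGR279C) and SCW10 (YMR305C). The genes were chosen by name for their role, with earlier results of these data known. All 10 were found among the 6388 genes of the authors' tables. Each carried a ratio on all 6 arrays, so all 10 were among the 4289 genes tested. They lie on 6 chromosomes, 4 of them on VII, 2 on XIII and 1 each on X, XII, XV and XVI.

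The mutant EKD-13 was built from the industrial Saccharomyces cerevisiae wine strain EC1118 by removing both copies of KNR4, and EC1118 itself was the wild type. It is a single recombinant strain, so a change in the strain other than the deletion cannot be told apart from the deletion. Both strains fermented the synthetic medium MS300 at 28 °C and were sampled in stationary phase, at 70 g of released CO2, or in mid-exponential phase, at 10 g. Each of the 6 two-colour arrays, 3 per phase, held RNA of one mutant and one wild-type vessel from the same phase, and the mutant's dye was Cy5 except on array 2 of each phase, where it was Cy3. The vessels compared belonged to one fermentation set except on stationary array 2, which put a mutant vessel of set 1 against a wild-type vessel of set 2. All ratios are log2 of EKD-13 over EC1118, so a positive value means more transcript in the mutant.

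Beta-glucan is the main load-bearing polymer of the yeast wall. A plasma membrane synthase, whose catalytic subunit is Fks1 or Gsc2 and whose regulator is the GTPase Rho1, spins beta-1,3-glucan chains, and Kre6, Skn1 and Kre9 are needed for the shorter beta-1,6-glucan that ties mannoproteins to the wall. Enzymes outside the membrane then cut, lengthen and branch the chains. KNR4 was first known for its effect on glucan synthase activity and is tied to the Slt2 cell wall integrity pathway, in which FKS1 and GSC2 are among the known target genes.

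The authors' deposited table had KNR4 (SMI1) at -1.74 in stationary phase (adjusted p = 2.45e-04) and -1.89 in mid-exponential phase (adjusted p = 2.73e-04), lower in EKD-13 as its label says. Only mid-exponential array 3 gave KNR4 a ratio, -4.51. Stationary arrays had ratios for 53.1 to 60.6% of the spots and mid-exponential arrays for 77.0 to 85.6%. The number of arrays, 3 per phase, limits the precision of every value. Of the 60 gene and array combinations of the members, 59 had both printed spots of the gene. The exception was FKS1 on stationary array 1, where its ratio of 1.60 rests on 1 spot. The spots differed by a median of 0.05 on the log2 scale and by less than 0.2 in 53 of the 59. The widest gap, 1.10, was in SCW10 on stationary array 2.

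In the refit with limma, FKS1 and SCW4 rose in stationary phase, 2 of the 10 genes, against 4.76% of all genes tested (2.98% in the higher direction). No member passed in mid-exponential phase, where 0.21% of all genes did. At an unadjusted p under 0.05 the limma counts were 5 of 10 in stationary phase, against 1029 of 4289 genes, and 3 of 10 in mid-exponential phase, against 13.3%. These p-values use a spread shared by both phases, although stationary ratios varied more. Off chromosome XII, percentiles 10 and 90 of the gene means were -0.82 and 0.67 in stationary and -0.53 and 0.44 in mid-exponential phase. With each phase fitted alone, no gene passed in either. Unadjusted counts were then 553 stationary and 1228 mid-exponential genes, against 1029 and 570. The contrast between the phases in refit counts thus depends on whether the spread is shared. The authors' deposited table called 5 of the 10 in stationary phase, FKS1, KRE6, SCW4 and SCW10 as higher and GAS1 as lower, against 4.18% of its genes (2.04% higher, 2.14% lower). The authors' deposited table called FKS1, KRE6 and SCW10 as higher in mid-exponential phase, 3 of 10, against 10.3% of its genes (5.67% higher). Such calls were common on chromosome XII, where FKS1 lies. Of its 550 other genes, 231 were called as higher in mid-exponential phase and 61 in stationary phase. The median ratio of the members was 0.28 in stationary and 0.10 in mid-exponential phase in the refit, beside -0.02 and -0.01 over all genes tested. In the authors' deposited table the members' median was 0.10 in stationary and 0.04 in mid-exponential phase.

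FKS1, KRE6 and SCW10 were above 0 on all 6 arrays, as were 8.68% of the 3020 genes with a ratio on all 6. Of those 262 genes 134 lie on chromosome XII, as FKS1 does and KRE6 and SCW10 do not. The share was thus higher on that chromosome, at 51.5%, and lower than 8.68% on the others. BGL2, as the mean of its spots, was below 0 on all 6, as were 8.41% of those genes. SCW4 was above 0 on the 3 stationary and below 0 on the 3 mid-exponential arrays, as were 2.81%. In the authors' deposited table the same 3 genes, FKS1, KRE6 and SCW10, were called as higher in both phases, a pattern that 0.908% of its genes had. The plot of every array shows these 3 genes to the right of 0 in both phases and SCW4 to the right in stationary phase only.

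**Figure D1:**
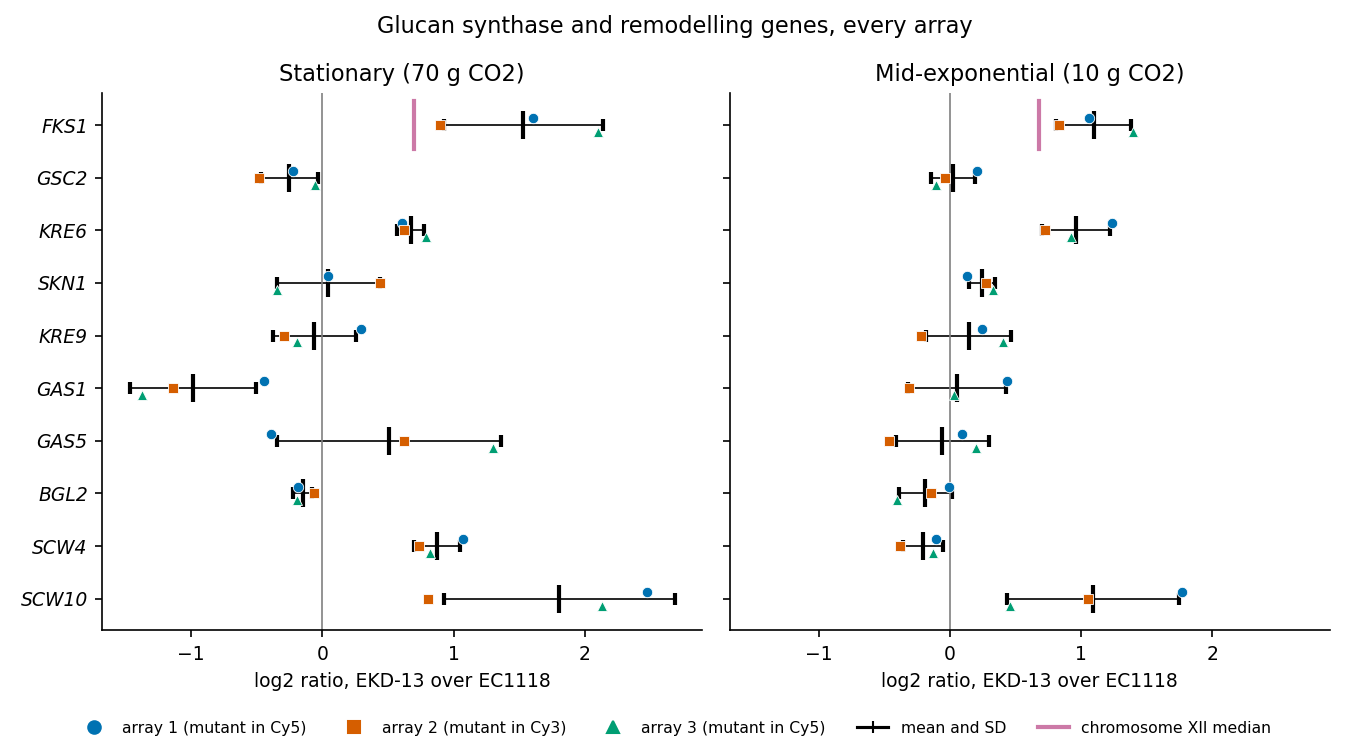
Log2 ratio of EKD-13 over EC1118 for the 10 genes in stationary (left) and mid-exponential phase (right); each symbol is an array, the bar is the mean with its SD (n = 3), and the pink line beside FKS1 is the median of the other chromosome XII genes. FKS1, KRE6 and SCW10 are above 0 on every array of both phases, and SCW4 is above 0 on the stationary arrays and below 0 on the mid-exponential ones.

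FKS1 encodes the main catalytic subunit of beta-1,3-glucan synthase in cells growing on glucose. Its ratio was 1.60, 0.90 and 2.10 on stationary arrays 1, 2 and 3, and 1.06, 0.83 and 1.40 on mid-exponential arrays 1, 2 and 3. The lowest FKS1 ratio of each phase was on array 2, where the dyes were swapped, and all 6 ratios were above 0. Stationary array 2 also compared vessels of different fermentation sets, so dye and set cannot be told apart there. FKS1 rose by 1.53 ± 0.60 (SD, n = 3) in stationary phase, 2.89-fold (limma adjusted p = 0.0324). In mid-exponential phase it stood at 1.10 ± 0.28 (SD, n = 3), 2.14-fold, and did not pass (adjusted p = 0.149). The authors' deposited table gave FKS1 1.10 in stationary phase (adjusted p = 0.0263) and 1.07 in mid-exponential phase (adjusted p = 5.96e-04). The stationary call in limma was lost without stationary replicate 1 (adjusted p = 0.113) or 3 (0.0872), and without any one of the mid-exponential arrays, where the ratio itself stays 1.53 and the shared spread is estimated from fewer arrays (0.0745 to 0.0924).

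FKS1 lies on chromosome XII, where most genes had ratios above 0. Over the array medians, the other tested genes of chromosome XII were at 0.70 ± 0.25 (SD, n = 3) in stationary and 0.68 ± 0.10 in mid-exponential phase, while the genes of the other chromosomes were at -0.04 and -0.05. Of the chromosome XII genes measured on all arrays 51.5% were above 0 on all 6, so the sign of FKS1 alone does not set it apart from its chromosome.

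Against that chromosome median, FKS1 was higher by 0.98, 0.41 and 1.13 on stationary arrays 1, 2 and 3. It was higher by 0.44, 0.04 and 0.77 on mid-exponential arrays 1, 2 and 3. As the mean of its spots, FKS1 was thus above the chromosome median on 6 of 6 arrays, by the least on array 2 of each phase. On mid-exponential array 2 its first spot, 0.76, was below the median of 0.79 and its second, 0.90, above it. There 164 of the 355 other chromosome XII genes were above FKS1. The mean excess was 0.84 ± 0.38 (SD, n = 3) in stationary phase and 0.42 ± 0.36 in mid-exponential phase. With the chromosome's median subtracted from every gene on every array, FKS1 did not pass in limma in either phase (adjusted p = 0.0963 in stationary and 0.560 in mid-exponential phase). On that scale 3.19% of genes passed in stationary phase, SCW4 and SCW10 among the members, and 0.0704% in mid-exponential phase, none of them a member. At an unadjusted p under 0.05 the mid-exponential count on that scale was 2 of 10 members, against 476 of 4262 genes.

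The place of FKS1 among the chromosome's genes depended on the table. By the mean of its arrays, FKS1 ranked above 85.2% of the other tested chromosome XII genes in stationary and 83.5% in mid-exponential phase, with 53 and 59 of 358 genes above it. In the authors' deposited table only NYV1, of 550 other chromosome XII genes, was above FKS1 in stationary phase, and 7 were in mid-exponential phase. NYV1 is named here after its value was seen. The authors' deposited table put FKS1 0.90 above the chromosome XII median in stationary and 0.73 above it in mid-exponential phase, and 0.80 and 0.58 above the median of that chromosome's genes above percentile 75 of mean intensity. The authors' deposited table held no test of that excess.

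Chromosome XII carries the ribosomal RNA genes, and FKS1 lies beyond them. The tested genes beyond them had array medians that averaged 0.75 in stationary and 0.70 in mid-exponential phase, close to the whole chromosome's. The 20 tested genes nearest to FKS1, 10 on each side in the reference order, had array medians that averaged 0.75 in stationary and 0.72 in mid-exponential phase. On a given array 16 to 20 of them had a ratio. By the mean of its arrays FKS1 was above 17 of those 20 neighbours in stationary phase and 16 of 20 in mid-exponential phase.

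**Figure D2:**
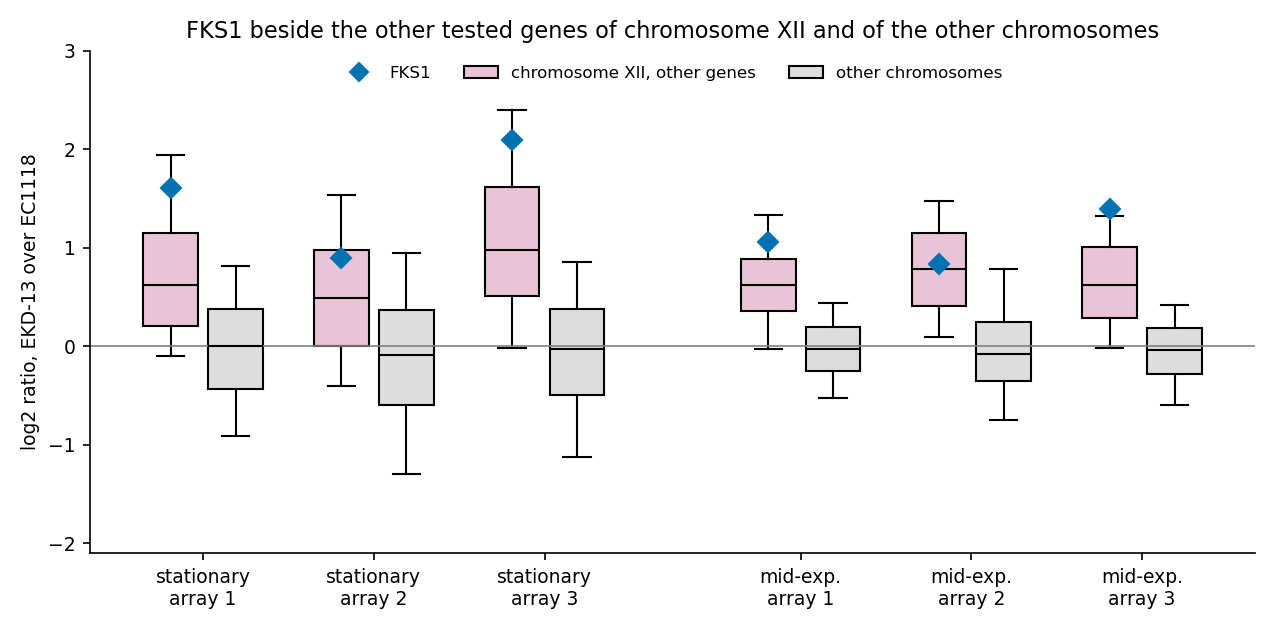
FKS1 (diamond) on each array beside the other tested genes of chromosome XII (pink) and of the other chromosomes (grey), as log2 ratio of EKD-13 over EC1118; boxes span the quartiles with the median as a line and whiskers run between percentiles 10 and 90. The pink medians lie between 0.49 and 0.97 and the grey ones near 0, and FKS1 is above the pink median on all 6 arrays, by 0.04 to 1.13. On mid-exponential array 2 the sign of that excess depends on which FKS1 spot is used.

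GSC2 encodes the alternative catalytic subunit, known to be induced when glucose runs out and by calcineurin and cell wall stress. Its ratio was -0.22, -0.48 and -0.05 on the stationary arrays and 0.21, -0.04 and -0.11 on the mid-exponential arrays. It was slightly below 0 on all 3 stationary arrays and on either side of 0 in mid-exponential phase. The means were -0.25 ± 0.22 and 0.02 ± 0.17 (SD, n = 3 each), neither past the threshold in limma (adjusted p = 0.386 and 0.983). GSC2 in the authors' deposited table at -0.24 in stationary phase, just outside the threshold (adjusted p = 0.0595), and at -0.04 in mid-exponential phase. FKS1 exceeded GSC2 on every array, by 1.38 to 2.15 in stationary and 0.85 to 1.51 in mid-exponential phase. With each gene's chromosome median subtracted, the gap was 1.27, 0.75 and 1.25 on the stationary arrays and 0.22, -0.04 and 0.86 on the mid-exponential arrays, so it was not above 0 on every array. The genes are close relatives, and whether transcripts of one bound the spots of the other was not tested, here and for the related pairs below.

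KRE6 encodes a membrane protein of the secretory pathway needed for beta-1,6-glucan. Its ratio was 0.61, 0.62 and 0.79 on the stationary arrays and 1.24, 0.73 and 0.92 on the mid-exponential arrays. All 6 ratios were positive and close together, and the stationary ones were the closest. The means were 0.67 ± 0.10 (1.59-fold) in stationary and 0.96 ± 0.26 (1.95-fold) in mid-exponential phase (SD, n = 3 each). Neither mean passed in limma (adjusted p = 0.0740 and 0.0994). The authors' deposited table called KRE6 in both phases, at 0.45 (adjusted p = 0.0110) and 0.62 (adjusted p = 0.00220). KRE6 is on chromosome XVI, whose median was -0.07 in stationary and -0.04 in mid-exponential phase.

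SKN1, the paralogue of KRE6, was at 0.04, 0.44 and -0.35 on the stationary arrays and at 0.13, 0.28 and 0.33 on the mid-exponential arrays. The stationary arrays disagreed in sign, and the mid-exponential ratios were small and positive. The means were 0.05 ± 0.39 and 0.24 ± 0.10 (SD, n = 3 each; limma adjusted p = 0.907 and 0.660), and the authors' deposited table did not call SKN1 either. KRE6 exceeded SKN1 on all 6 arrays, by 0.18 to 1.14 in stationary and 0.45 to 1.10 in mid-exponential phase.

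KRE9 encodes a secreted glycoprotein also needed for beta-1,6-glucan. It was at 0.30, -0.29 and -0.19 on the stationary arrays and 0.24, -0.22 and 0.41 on the mid-exponential arrays, with both signs in each phase. The means were -0.06 ± 0.32 and 0.14 ± 0.32 (SD, n = 3 each; limma adjusted p = 0.879 and 0.849). KRE9 was at 0.04 and 0.11 in the authors' deposited table, not called in either phase.

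GAS1 encodes the main beta-1,3-glucanosyltransferase, an enzyme anchored at the cell surface that lengthens glucan chains. Its ratio was -0.45, -1.14 and -1.37 on the stationary arrays and 0.44, -0.31 and 0.03 on the mid-exponential arrays. All 3 stationary ratios were below all 3 mid-exponential ratios, and the mid-exponential ones lay around 0. The stationary mean was -0.99 ± 0.48 (SD, n = 3), 1.98-fold lower, and did not pass in limma (adjusted p = 0.0749). The authors' deposited table called GAS1 as lower in stationary phase, at -0.69 (adjusted p = 0.0378). In mid-exponential phase the mean was 0.05 ± 0.37 (limma adjusted p = 0.973), against -0.05 in the authors' deposited table.

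GAS5, of the same enzyme family, was at -0.40, 0.62 and 1.30 on the stationary arrays and 0.09, -0.46 and 0.20 on the mid-exponential arrays. The stationary values had the second widest spread of the 10 genes. The means were 0.51 ± 0.85 and -0.06 ± 0.35 (SD, n = 3 each; limma adjusted p = 0.391 and 0.978), and the authors' deposited table called neither, at 0.16 and -0.09. GAS1 minus GAS5 was -0.05, -1.76 and -2.67 on the stationary arrays, so the gap ran from next to none on array 1 to a wide one on array 3. In mid-exponential phase GAS1 minus GAS5 was 0.34, 0.15 and -0.17.

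SCW4 and SCW10 encode wall proteins of the glucanase family to which Bgl2 belongs. SCW4 was at 1.07, 0.74 and 0.82 on the stationary arrays and -0.11, -0.38 and -0.13 on the mid-exponential arrays. Within each phase the arrays stood close together, all higher in stationary phase and all slightly lower in mid-exponential phase. SCW4 rose by 0.88 ± 0.18 (SD, n = 3) in stationary phase, 1.84-fold (limma adjusted p = 0.0360), and the authors' deposited table also called it, at 0.79 (adjusted p = 7.07e-04). In mid-exponential phase it was at -0.21 ± 0.15 (limma adjusted p = 0.645), and at -0.24, not called, in the authors' deposited table. The stationary call in limma was lost with a dye term (0.84, adjusted p = 0.0605), without stationary replicate 1 (adjusted p = 0.112) or 3 (0.0902), and without any one mid-exponential array (0.0826 to 0.108).

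SCW10 was at 2.48, 0.81 and 2.13 on the stationary arrays and 1.77, 1.06 and 0.46 on the mid-exponential arrays. All 6 ratios were positive but far apart, and the low stationary value, on array 2, was the one whose printed spots differed most, at 0.26 and 1.36. The stationary mean was 1.81 ± 0.88 (SD, n = 3), 3.50-fold, just outside the threshold in limma (adjusted p = 0.0561), and the mid-exponential mean was 1.09 ± 0.66, 2.13-fold (adjusted p = 0.284). With each chromosome's median subtracted, SCW10 passed in stationary phase at 1.84 (adjusted p = 0.0347), and without stationary replicate 2 it passed at 2.31 (adjusted p = 0.0245). The authors' deposited table called SCW10 in both phases, at 0.76 (adjusted p = 0.0345) and 0.79 (adjusted p = 0.00501). SCW10 exceeded SCW4 on all 6 arrays, by 0.07 to 1.40 in stationary and 0.59 to 1.87 in mid-exponential phase. The gap of 0.07, on stationary array 2, rests on the mean of the SCW10 spots. The first SCW10 spot there, 0.26, was below both SCW4 spots, 0.73 and 0.75.

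BGL2 encodes an abundant wall endoglucanase that can also join glucan chains. It was at -0.19, -0.07 and -0.20 on the stationary arrays and -0.01, -0.15 and -0.41 on the mid-exponential arrays, close to 0 throughout. Its second spot was above 0 on stationary arrays 1 and 2, at 0.14 and 0.11, and the first spot alone gave a stationary mean of -0.34 (limma adjusted p = 0.229). The means were -0.15 ± 0.07 and -0.19 ± 0.20 (SD, n = 3 each; limma adjusted p = 0.588 and 0.677). BGL2 was at -0.0087 and -0.20 in the authors' deposited table, not called in either phase.

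**Figure D3:**
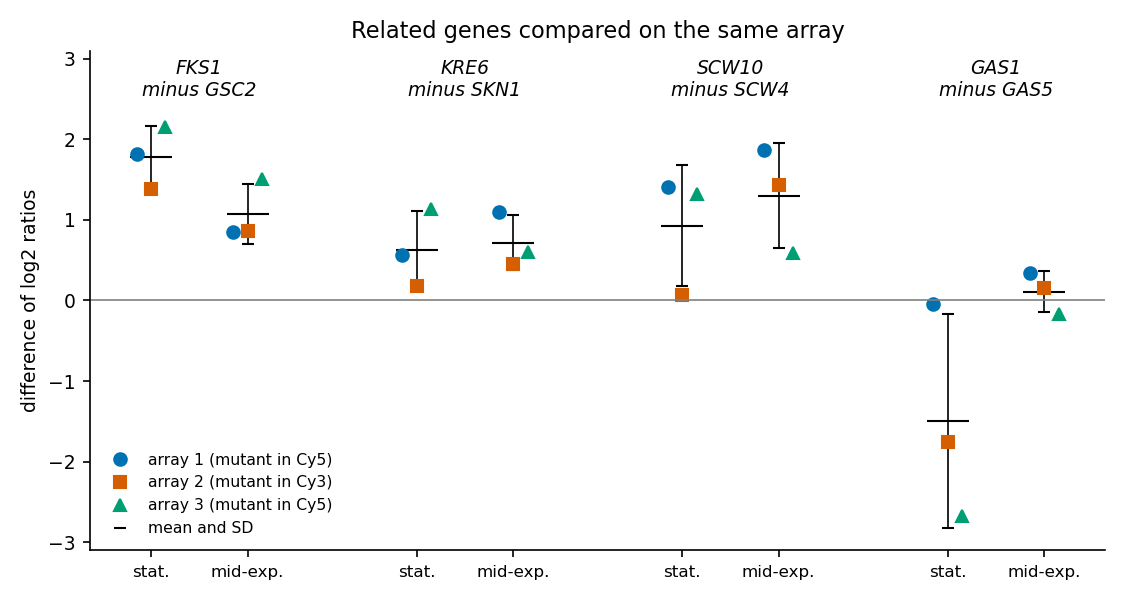
Difference between the log2 ratios of related genes on the same array, in stationary (stat.) and mid-exponential phase (mid-exp.); symbols are arrays and the bar is the mean with its SD (n = 3). FKS1 minus GSC2, KRE6 minus SKN1 and SCW10 minus SCW4 are above 0 on all 6 arrays (FKS1 minus GSC2 on 5 of 6 once chromosome medians are subtracted), and GAS1 minus GAS5 is at -0.05, -1.76 and -2.67 on the stationary arrays. On stationary array 2 SCW10 minus SCW4 is 0.07, and its sign depends on which SCW10 spot is used.

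Among members that lie near each other, ratios differed in stationary phase. On chromosome XIII SCW10 and GAS1 are separated by 1 gene, FKS3, and in stationary phase SCW10 stood at 1.81 while GAS1 stood at -0.99. Neither passed in limma (adjusted p = 0.0561 and 0.0749), while the authors' deposited table called both. On chromosome VII SCW4 and BGL2 are separated by 2 genes, and in stationary phase stood at 0.88 and -0.15. The BGL2 value was close to 0 and not called in limma (adjusted p = 0.588). In mid-exponential phase SCW10 and GAS1 were at 1.09 and 0.05, and SCW4 and BGL2 were both slightly below 0, at -0.21 and -0.19. The medians of both chromosomes were near 0, at 0.00 and -0.05 for VII and at -0.03 and -0.11 for XIII in stationary and mid-exponential phase.

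Whether the effect of the deletion differed between phases was tested as stationary minus mid-exponential. No member passed in limma, where 5 of 4289 genes, 0.117%, did, and at an unadjusted p under 0.05 the count was 2 of 10, against 12.8% of all genes. Those were SCW4, at a difference of 1.08 ± 0.22 (SE; adjusted p = 0.166), and GAS1, at -1.04 ± 0.34 (SE; adjusted p = 0.296). By fermentation set, SCW4 differed by 1.18 in set 1 and 1.07 in set 2, and GAS1 by -0.88 and -1.23. Stationary array 2 was left out here, as its RNAs came from different sets. The genes were picked by their difference on these same arrays, so the shared sign is no separate support. FKS1, KRE6, SKN1 and SCW10 also kept their sign in both sets. Array 3, part of set 2, sampled the same mutant and wild-type vessels in both phases. There the difference was 0.95 for SCW4 and -1.40 for GAS1. For FKS1 the difference was 0.44 ± 0.36 (SE; adjusted p = 0.634) and turned to -0.20 once the arrays were brought to one spread (adjusted p = 0.838). For SCW10 it was 0.71 ± 0.54 and for KRE6 -0.29 ± 0.23 (SE; adjusted p = 0.607 and 0.621).

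The sizes of the changes were smaller in the authors' deposited table than in the refit for most members with a sizeable ratio. The value in the authors' deposited table was 0.72 of the refit's for FKS1 in stationary phase and 0.98 of it in mid-exponential phase. For SCW10 it was 0.42 in stationary and 0.72 in mid-exponential phase, for KRE6 0.66 and 0.65, and in stationary phase 0.70 for GAS1 and 0.90 for SCW4. The sign was the same in both for each of these. The plot of both sets of values shows where the calls differ. The authors' deposited table also passes KRE6 and SCW10 in both phases, GAS1 in stationary phase and FKS1 in mid-exponential phase.

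**Figure D4:**
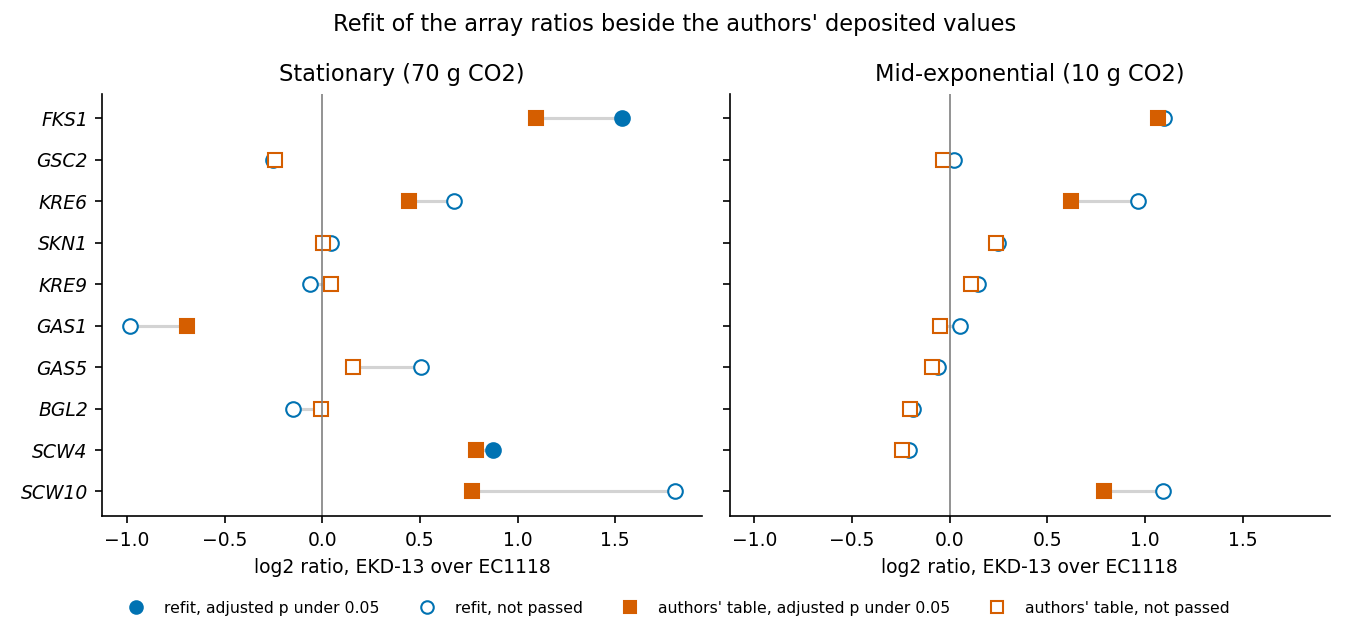
Log2 ratio of EKD-13 over EC1118 for the 10 genes in stationary (left) and mid-exponential phase (right), as the refit's mean of 3 arrays (circles) and as the value in the authors' deposited table (squares), filled where the adjusted p was under 0.05. The refit fills FKS1 and SCW4 in stationary phase only, and the authors' deposited table fills 5 genes in stationary and 3 in mid-exponential phase.

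By the distance between ratios over the 6 arrays, among 3020 genes, the genes most like FKS1 were STM1 (distance 0.63), SWI6 (0.72) and RDS3 (0.76), the first and second of them on chromosome XII. Their means were 1.41, 1.24 and 1.26 in stationary and 1.11, 1.16 and 1.14 in mid-exponential phase. The genes most like KRE6 were PDC5 and NIT3, both on chromosome XII, and MPT5 on VII, at distances of 0.51 to 0.61. Those most like GAS1 were YGR054W, SET4 and YHR033W, at 0.61 to 0.65, with means of -0.65 to -1.18 in stationary and -0.04 to 0.09 in mid-exponential phase. BGL2 lay nearest to AUR1, TUP1 and FBA1, at 0.21 to 0.27, all close to 0.

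The other genes of glucan synthesis and turnover made up a list of 27, KNR4 itself included, also chosen with earlier results of these data known. Most of them were without a call. In the refit 15 of them were tested, of which 3 rose in stationary phase (4.76% of all genes passed) and none fell. No gene of the list passed in mid-exponential phase (0.21% of all genes) or in the difference between phases (0.117%), and at an unadjusted p under 0.05 the limma counts there were 4 and 5 of 15, against 13.3% and 12.8% of all genes. The unadjusted count in stationary phase was 9 of 15, against 1029 of 4289 genes. The median over the 15 was 0.23 in stationary and 0.07 in mid-exponential phase, beside -0.02 and -0.01 for all genes tested. Beside KNR4, the authors' deposited table called ACF2 and TOS1 as higher and NCA3 as lower in stationary phase, and ACF2 and EXG1 as higher and GAS3 and NCA3 as lower in mid-exponential phase. ACF2 and EXG1 lie on chromosome XII. Of its 550 genes other than FKS1, 61 were called as higher in stationary and 231 in mid-exponential phase. The authors' deposited table called none of the 10 listed genes for beta-1,6-glucan in either phase. Over all its genes it called 4.18% in stationary and 10.3% in mid-exponential phase, so few calls would be due among 10. The refit called none of the 6 it tested, KRE1, KRE5, CNE1, ROT1, BIG1 and CWH41 (4.76% and 0.21% of all genes passed). TRS65, KEG1, KNH1, ROT2 and BIG1 were dim, at percentile 34.6 of mean intensity or lower in both phases. CNE1 was just outside the threshold in the authors' deposited table in mid-exponential phase, at -0.36 (adjusted p = 0.0503).

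TOS1, which encodes a protein bound to the wall, was at 1.26, 1.05 and 0.95 on the stationary arrays and at 0.08, 0.25 and -0.03 on the mid-exponential arrays. It rose by 1.09 ± 0.16 (SD, n = 3) in stationary phase (limma adjusted p = 0.0280), and the authors' deposited table gave it 0.66 (adjusted p = 0.00340). Like SCW4 it was high on every stationary array and near 0 in mid-exponential phase, with a difference of 0.99 that did not pass (adjusted p = 0.182). The stationary call was lost without any one array other than stationary array 2 (limma adjusted p = 0.0654 to 0.0949). It was also lost with the arrays brought to one spread (0.87, limma adjusted p = 0.0733) and with the stationary arrays alone (0.262).

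ACF2, an endo-beta-1,3-glucanase gene on chromosome XII, was at 0.89, 2.73 and 1.74 on the stationary arrays and at 1.74, 1.54 and 1.84 on the mid-exponential arrays. It rose by 1.79 ± 0.92 (SD, n = 3) in stationary phase (limma adjusted p = 0.0392), and did not pass with its chromosome's median subtracted (1.09, adjusted p = 0.156), with a dye term (0.0522) or without any one array other than stationary array 2 (0.0730 to 0.111). Nor did it pass there with the arrays brought to one spread (1.38, limma adjusted p = 0.0851) or with the stationary arrays alone (0.276). In mid-exponential phase ACF2 was at 1.71 ± 0.15 (adjusted p = 0.108). The authors' deposited table gave ACF2 only 0.36 in stationary and 0.64 in mid-exponential phase.

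SIM1, of the SUN family of wall proteins linked to septation, rose by 3.13 ± 0.06 in stationary phase on the 2 arrays that measured it, at 3.17 and 3.09 (limma adjusted p = 0.0121). The size is uncertain, because the authors' deposited table gave SIM1 0.41 in that phase and did not call it (adjusted p = 0.127). The call in limma was lost without mid-exponential replicate 2 (adjusted p = 0.0588) or 3 (0.0507), and with the stationary arrays alone (0.242). Without stationary replicate 1 or 3 SIM1 had too few ratios to be tested. In mid-exponential phase, where its spots were brighter, SIM1 was at 0.10 ± 0.35 (SD, n = 3), and 0.10 in the authors' deposited table.

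NCA3, another SUN family gene, was at -1.30, -2.82 and -0.87 on the stationary arrays and at -1.10, -1.96 and -2.60 on the mid-exponential arrays. It was below 0 on all 6 arrays, with means of -1.66 ± 1.03 and -1.89 ± 0.76 (SD, n = 3 each), neither past the threshold in limma (adjusted p = 0.0853 and 0.149). The authors' deposited table called NCA3 in both phases, at -1.23 (adjusted p = 0.00958) and -1.51 (adjusted p = 9.42e-05).

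EXG1, the main exoglucanase gene of the wall, also lies on chromosome XII and was at 0.84, 1.24 and 0.64 on the mid-exponential arrays. Its means were 0.23 ± 0.22 in stationary and 0.91 ± 0.30 in mid-exponential phase (SD, n = 3 each; limma adjusted p = 0.480 and 0.112). With the chromosome's median subtracted, EXG1 was at -0.47 in stationary and 0.23 in mid-exponential phase, so only its mid-exponential excess kept the sign. The authors' deposited table gave EXG1 0.18 in stationary and 0.90 in mid-exponential phase (adjusted p = 0.319 and 5.96e-04). GAS3, of the glucanosyltransferase family, was at -0.67 ± 0.41 in stationary and -0.67 ± 0.29 in mid-exponential phase (SD, n = 3 each; limma adjusted p = 0.127 and 0.244). GAS3 was below 0 on all 6 arrays, and the authors' deposited table gave it 0.02 and -0.50 (adjusted p = 0.970 and 0.0173). RHO1, the regulator of the synthase, was named after its values were seen; its well could not be relied on, so it was left out of the refit, and the authors' deposited table gave it 0.15 in stationary and 0.11 in mid-exponential phase, not called.

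**Figure D5:**
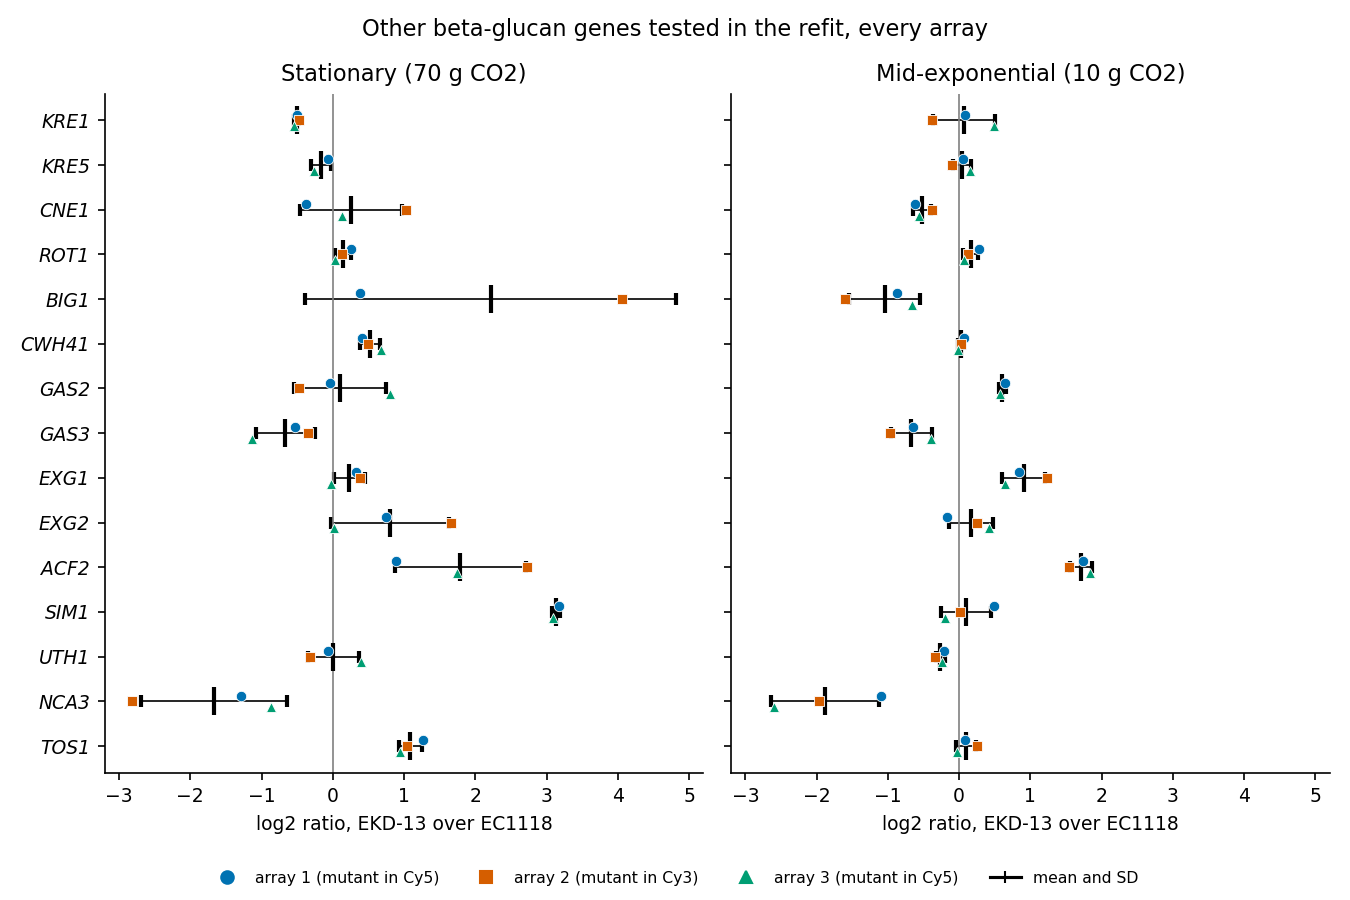
Log2 ratio of EKD-13 over EC1118 for the 15 other beta-glucan genes tested in the refit, in stationary (left) and mid-exponential phase (right); each symbol is an array and the bar is the mean with its SD over the arrays that measured the gene (2 or 3). TOS1 and SIM1 lie to the right of 0 in stationary phase and near 0 in mid-exponential phase, ACF2 lies to the right and NCA3 to the left in both.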

How the data were processed

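The authors deposited a log2 ratio for each spot of each array. R 2.9.2 and limma are named per the submitters' processing notes, and how background was removed, arrays were normalized and spots were left empty is not given in the sources used here. Per the file headers, the authors' deposited gene tables hold log2 fold changes, mean log2 intensities, t as a score, p-values with adjusted p-values and, for one phase, fold changes as a linear ratio. Per the labels, some vessels were sampled in both phases. Of the genes the authors called, 98.6 to 100.0% had the same sign on a given array, dye-swapped arrays included, so ratios were used as given.

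Spots took names through plate wells, and the 2 spots of a gene were averaged. Wells in row E of plates 10 to 19 (228 genes) were left out of the refit, since their ratios followed the authors' values poorly (r across genes 0.302 and 0.383, against 0.788 and 0.840 for other rows). Symbols came from the R64 gene table for 5849 of 6388 genes, and chromosomes from systematic names. No sequence was used.

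The refit was made with limma 3.58.1 (R 4.3.3), one mean per phase over all 6 arrays, for the 4289 genes measured on 2 or more arrays in both phases, with 4 residual and 2.28 prior degrees of freedom. Adjusted p-values are Benjamini-Hochberg values over all genes tested, two-sided, with 0.05 as the threshold. A chromosome's median was taken over its other tested genes on that array. Where nothing says that vessels were independent cultures of separate inocula, p-values measure only the spread between these arrays. The limma step was tested on simulated data. Alternatives were one spread for all arrays, centring, a dye term, other filters, the first spot, row E kept, single-phase fits, robust variance, a replicate block and each array left out. Plots were drawn with matplotlib 3.10.9 in Python 3.11.15.

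All 10 genes are described, and of the wider list those past the threshold in either table. Members and lists were chosen with earlier results of these data known. Same-numbered arrays of the phases correlated, in their deviations from the phase mean, at 0.07, 0.22 and -0.04, so numbers were not taken as pairs.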

Additional observations from a re-analysis of the deposited data

Results flagged for a closer look

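SCW4 was above 0 on all 3 stationary arrays and below 0 on all 3 mid-exponential arrays, as were 2.81% of the 3020 genes with a ratio on all 6. The difference between the phases was 1.08 on the log2 scale and did not pass in limma (adjusted p = 0.166; 0.100 to 0.514 with one array left out). BIG1, named here for this pattern and a gene of beta-1,6-glucan synthesis, was likewise above 0 on the 2 stationary arrays that measured it, at 0.38 and 4.06, and below 0 on all 3 mid-exponential arrays, at -0.87, -1.61 and -0.66. Its difference was 3.26 and did not pass (adjusted p = 0.325), and the authors' deposited table gave BIG1 0.09 in stationary and -0.17 in mid-exponential phase.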

How the results depend on the processing

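No call of a member or of the wider list in the refit held under every alternative, while the sign of the larger ratios did: FKS1, KRE6 and SCW10 stayed above 0 in both phases, and SCW4 above and GAS1 below 0 in stationary phase, under all 16 alternatives to each. In stationary phase 204 genes, 2 members and 3 of the wider list passed. Arrays brought to one spread gave 28, 0 and 1, a dye term 72 genes and 1 member, the stationary arrays alone 0 of each (553 genes at an unadjusted p under 0.05), and leaving out one array 6 to 355, 0 to 3 and 0 to 3. FKS1 in stationary phase did not pass with the chromosome median subtracted (0.84), with one spread (1.23) or in that phase alone (1.53, adjusted p = 0.262), and ran from 1.25 to 1.85 with one array left out. SCW4 did not pass with one spread (0.71), a dye term (0.84) or in that phase alone (0.88), and ran from 0.78 to 0.95. In mid-exponential phase 9 genes passed, 7 of them higher. One spread gave 178, of which 119 were higher, with 2 members (FKS1 at 1.43 and KRE6 at 1.26) and 3 of the wider list; the chromosome median subtracted gave 3, a dye term 1, that phase alone 0 (1228 at an unadjusted p under 0.05), and one array left out 0 to 15. For the difference between phases 5 genes passed, 2 of them higher, against 10 with the chromosome median subtracted (1 of the wider list, SIM1), 4 with one spread (0 higher), 2 with a dye term, 3 with the first spot alone and 1 to 21 with one array left out (0 to 1 of the wider list). The replicate block gave 1 gene and changed no call among the members. Values near 0 changed sign: KRE9 in stationary phase to 0.11 with the chromosome median subtracted (-0.24 to 0.054 with one array left out), GSC2 and GAS1 in mid-exponential phase to -0.014 and -0.013 with a dye term (-0.072 to 0.0875 and -0.14 to 0.23), and the BGL2 difference to -0.009 with the chromosome median subtracted and -0.17 with the first spot (-0.0708 to 0.13). With one array left out, SKN1 in stationary phase ran from -0.15 to 0.24 and GAS5 in mid-exponential phase from -0.19 to 0.14. The FKS1 difference turned to -0.20 with one spread. FKS1 minus the chromosome XII median did not pass under any alternative and ran from 0.68 to 1.07 in stationary and 0.24 to 0.61 in mid-exponential phase with one array left out. The cause of these changes was not tested. SIM1 in mid-exponential phase ran from -0.099 to 0.245 with one array left out, and EXG1 in stationary phase turned to -0.47 with the chromosome median subtracted. Of the wider list 12 of 27 genes were not tested in the refit, RHO1 for its well and the others for too few ratios.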
